A study of Arabidopsis thaliana with 12 samples.

Results

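The 10 genes described here are the iron uptake and iron deficiency genes IRT1, FRO2, FRO3, FIT, BHLH38, BHLH39, BHLH100, BHLH101, PYE and BTS of Arabidopsis thaliana. They were chosen by name, for their known place in the iron response, from 33557 genes in the deposited table, and 19846 of these genes had enough signal to be tested. All 10 iron genes passed that filter on low values. Root messenger RNA was measured in Col-0 seedlings after arsenate, or As(V), which resembles phosphate and enters roots through its transporters. Seedlings had 7 days on plates with phosphate at 1 mM, then 2 days on plates lacking it. As(V) at 30 µM was given in liquid medium free of phosphate, and roots were sampled beside a mock group after 1.5, 6 or 24 h. Each sample was made of 60 seedlings, and each of the 6 groups, As(V) and mock at each time, had 2 replicates. All groups, mock included, had thus been kept without phosphate before the treatment, and the labels name no difference in iron supply.

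Arabidopsis roots take up iron in a reduction strategy: proton pumps acidify the soil, the membrane reductase FRO2 turns ferric into ferrous iron, and the transporter IRT1 brings ferrous iron into epidermal cells. The bHLH factor FIT activates IRT1 and FRO2 as a dimer with one of the subgroup Ib bHLH factors, BHLH38, BHLH39, BHLH100 and BHLH101, whose genes are induced when iron is scarce. PYE, a further bHLH factor, represses genes of iron distribution, and BTS, an E3 ubiquitin ligase with hemerythrin domains that bind iron, marks bHLH factors upstream of this network for degradation.

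Upstream sequences are shown because bHLH factors bind the E-box CANNTG and its G-box form CACGTG. They are those of BTS, BHLH38, BHLH39 and BHLH100, 4 of the 5 iron genes with CANNTG in this window, and, for contrast, those of IRT1 and of BHLH101, the subgroup Ib gene without it. The windows are the 250 bases before the annotated gene start in the TAIR10.1 genome, written from 5′ to 3′ on the strand of the gene. They lie at chr3:6273716-6273965 on the plus strand for BTS, chr3:21085246-21085495 on the minus strand for BHLH38, chr3:21087711-21087960 on the minus strand for BHLH39 and chr2:17199455-17199704 on the minus strand for BHLH100. Those of IRT1 and BHLH101 lie at chr4:10707094-10707343 on the plus strand and chr5:1139634-1139883 on the minus strand. Capitals mark every match to CANNTG, of which CACGTG is one form.
BTS: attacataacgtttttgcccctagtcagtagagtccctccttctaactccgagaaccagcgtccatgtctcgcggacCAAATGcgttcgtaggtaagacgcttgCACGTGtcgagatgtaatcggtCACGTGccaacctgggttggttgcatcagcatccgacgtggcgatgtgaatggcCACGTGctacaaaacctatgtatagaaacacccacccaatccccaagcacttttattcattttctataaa
BHLH38: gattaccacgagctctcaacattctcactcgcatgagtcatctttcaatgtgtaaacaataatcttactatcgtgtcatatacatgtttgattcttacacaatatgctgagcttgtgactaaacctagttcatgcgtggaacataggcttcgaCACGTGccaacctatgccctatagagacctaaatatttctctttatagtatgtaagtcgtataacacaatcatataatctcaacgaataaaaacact
BHLH39: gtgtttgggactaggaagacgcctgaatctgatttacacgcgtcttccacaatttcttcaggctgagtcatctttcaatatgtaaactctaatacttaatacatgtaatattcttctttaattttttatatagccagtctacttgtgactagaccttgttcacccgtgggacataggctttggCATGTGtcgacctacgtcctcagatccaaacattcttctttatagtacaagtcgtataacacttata
BHLH100: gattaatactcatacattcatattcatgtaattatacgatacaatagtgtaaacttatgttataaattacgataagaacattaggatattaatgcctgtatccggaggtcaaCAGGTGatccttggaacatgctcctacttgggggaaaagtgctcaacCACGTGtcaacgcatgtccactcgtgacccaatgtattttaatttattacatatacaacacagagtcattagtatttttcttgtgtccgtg
BHLH101: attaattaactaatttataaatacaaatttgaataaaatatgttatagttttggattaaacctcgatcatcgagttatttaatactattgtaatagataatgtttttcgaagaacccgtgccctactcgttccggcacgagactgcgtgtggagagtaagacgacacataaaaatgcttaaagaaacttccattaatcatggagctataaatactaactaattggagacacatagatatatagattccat
IRT1: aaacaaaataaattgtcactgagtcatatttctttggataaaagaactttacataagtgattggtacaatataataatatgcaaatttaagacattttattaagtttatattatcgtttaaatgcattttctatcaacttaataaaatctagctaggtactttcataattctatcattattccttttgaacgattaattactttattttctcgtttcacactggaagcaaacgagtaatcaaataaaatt

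The window of BTS held CACGTG 3 times, with first bases at -146, -124 and -70 from the gene start. BHLH38 held it once, at -97, and BHLH100 once, at -91. CACGTG was thus in 3 of the 10 iron genes and in 6.49% of 27437 windows of the same length upstream of genes, and 27 of those windows held it 3 or more times. CANNTG was in 5 of the 10 genes and in 55.3% of the windows, close to the same share. BHLH39 had 1 such match, CATGTG at -67, and FIT had 1, CAAATG at -249. The windows of IRT1, FRO2, FRO3, BHLH101 and PYE held no CANNTG. On both strands, GNATATNC, the site of phosphate starvation regulators, was in 0 of the 10 windows against 5.46% of all. GAANNTTC, a core of the heat shock element, was in 1 of the 10, BHLH101, against 9.55% of all, and TTGACC, a form of the W-box, was in 2, FRO3 and BHLH100, against 12.2%. These matches describe the letters of the windows only. BHLH38 and BHLH39 are neighbours on chromosome 3, both on the minus strand and 1144 bases apart. No stretch of 50 exon bases of any of the 10 genes occurred elsewhere in the genome.

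The labels do not name the unit of the deposited values, which behave as FPKM, reads per length of transcript scaled to the size of the library. They are called FPKM here, and levels set side by side between genes rest on that reading. An estimated 12.71 to 15.94 M reads per library fell in genes, and for a gene of 1500 bases each read added 0.0454 to 0.1237 FPKM. The library size implied by the scaling, divided by the reads in genes, was 0.634 and 0.65 after 1.5 h of As(V), 0.443 and 0.458 after 6 h of As(V), 1.108 and 1.048 after 24 h of As(V), and 0.978 to 1.032 in the mock libraries. The median log2 change with As(V) over all genes tested at 1.5, 6 and 24 h was -0.09, -0.12 and -0.06 as deposited. Scaled by library totals alone it was -0.59, -1.01 and 0.03, so each direction below is relative to the deposited scaling, and for the 10 genes the value with library totals is given where it makes or ends a call or moves a called change by more than 1.5 times. All 6 root markers reached 1 FPKM in every library, but their summed level was 647 to 3280 FPKM in As(V) roots and 4550 to 7100 FPKM in mock roots. Most of that sum was PYK10, a glucosidase gene, with 596 FPKM in As(V) roots at 24 h, against 4550 FPKM in mock roots. The median change of the 6 was -1.2, -1.15 and -1.07 at 1.5, 6 and 24 h. By the test described below, 0 were called higher and 5, 4 and 5 lower, beside 33.6%, 37.4% and 36.2% of all genes lower. At 24 h COBL9 averaged 7.94 FPKM in As(V) roots, against 28.9 FPKM in mock roots. In the same order GL2 had 3.32 and 6.15 FPKM, CASP1 71.6 and 194 FPKM, and SCR 10.6 and 15.0 FPKM. PLT1, of the root tip, averaged 2.25 FPKM in As(V) roots at 24 h, against 2.21 FPKM in mock roots. The part of these markers in the results was not tested, and in whole roots fewer cells of a type and less RNA per cell cannot be told apart. The 6 leaf markers summed to 25.1 to 209 FPKM in As(V) roots and 54.1 to 154 FPKM in mock roots. Nothing in the labels ties replicates to separate cultures, so the p-values cover the spread between these samples only, which may be technical.

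The comparison of As(V) with mock at each time asks how the arsenate response touches the iron genes. Each change is given as a log2 ratio of FPKM + 1 with its standard error, which makes changes of genes near 0 look smaller than they are, and a gene was called under an adjusted p of 0.05 (limma, Benjamini-Hochberg over all 19846 genes). At 1.5 h 2 of the 10 iron genes were higher with As(V), FIT and BTS, 4 were lower and 4 were not called. The background was wide: 30.0% of all genes tested were higher and 33.6% lower. At 6 h 3 iron genes were higher, IRT1, FIT and BTS, 1 was lower and 6 were not called, beside 35.6% of all genes higher and 37.4% lower. At 24 h 3 were higher, BHLH39, PYE and BTS, 5 were lower and 2 were not called, beside 29.2% of all genes higher and 36.2% lower. Against these backgrounds the counts are no result about the 10 genes as a group, and the median change of the 10, -0.62, -0.11 and -0.14 at 1.5, 6 and 24 h, covers genes that moved in opposite directions. With library totals 3092 of all genes were higher and 12201 lower at 1.5 h, against 5950 and 6661 as deposited, and 3317 were higher and 13670 lower at 6 h, against 7068 and 7427. No iron gene changed direction in any comparison of As(V) with mock under that scaling.

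**Figure D1:**
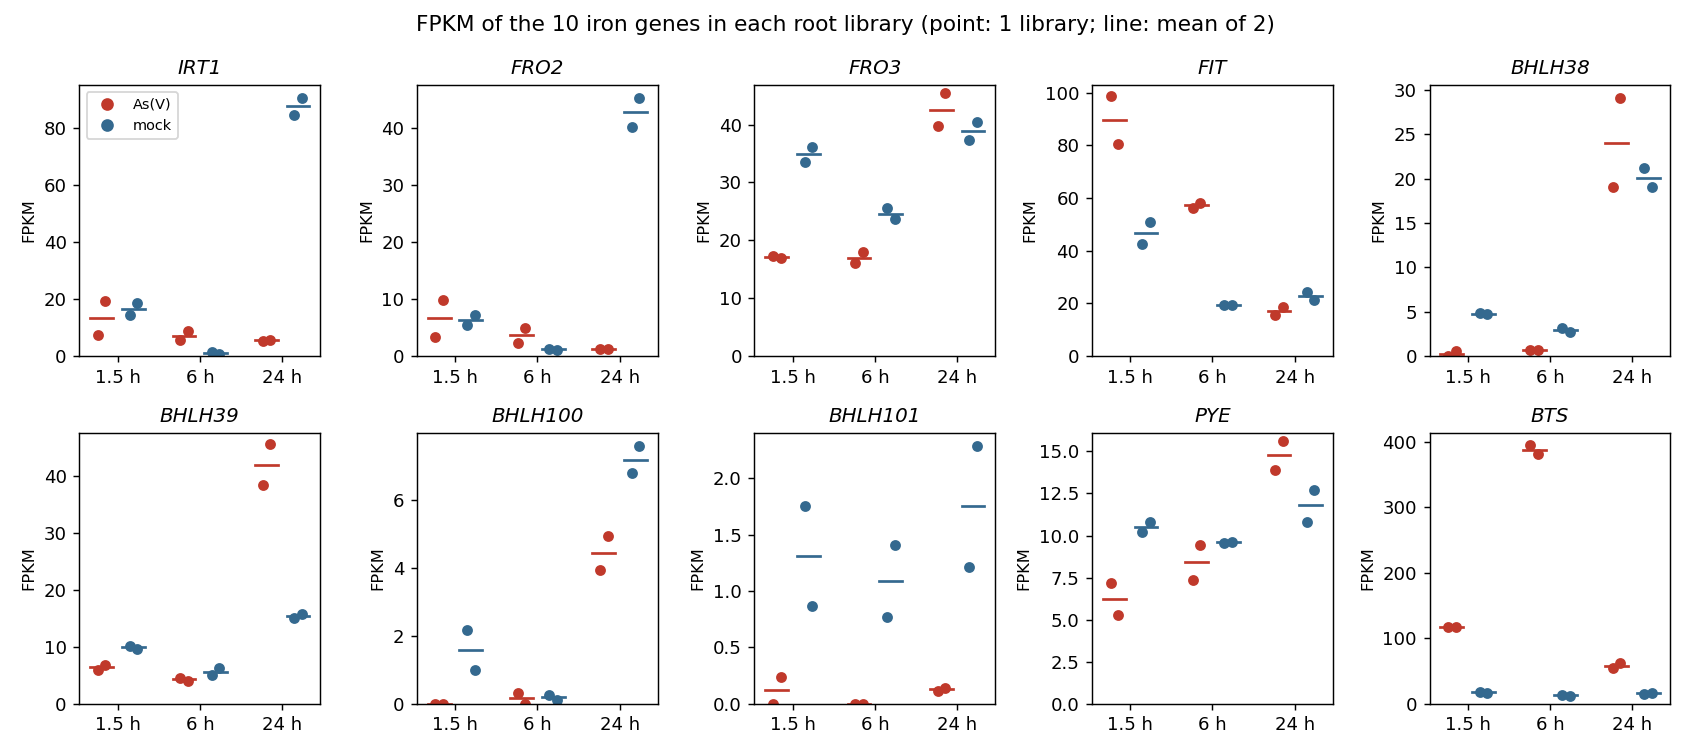
FPKM of each of the 10 iron genes (y axis, linear, from 0) in As(V) roots (red) and mock roots (blue) at 1.5, 6 and 24 h (x axis); points are libraries and lines are means of 2. At 24 h IRT1 is at 5.22 and 5.64 FPKM in As(V) roots, against 84.4 and 90.5 FPKM in mock roots, and at 6 h BTS is at 395 and 381 FPKM in As(V) roots, against 14.0 and 12.1 FPKM in mock roots.

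The transporter gene IRT1 (AT4G19690) had 5.22 and 5.64 FPKM in As(V) roots at 24 h, against 84.4 and 90.5 FPKM in mock roots. The groups lay far apart, and IRT1 was 16.1-fold lower with As(V), with a log2 change of -3.79 ± 0.29 (adjusted p = 1.9e-06). At 6 h the order was turned round: IRT1 had 5.42 and 8.58 FPKM in As(V) roots, against 1.37 and 0.777 FPKM in mock roots. This was a change of 1.94 ± 0.65 (adjusted p = 0.02), which rested on 43.1 and 71.9 estimated reads in As(V) roots and 26.2 and 16.3 in mock roots. The call at 6 h was lost with library totals (0.99, adjusted p = 0.16). It was also lost without As(V) replicate 2 (1.65, adjusted p = 0.1), without mock replicate 1 (2.14, adjusted p = 0.076) and without mock replicate 2 (1.73, adjusted p = 0.087).

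At 1.5 h IRT1 had 7.4 and 19.4 FPKM in As(V) roots, against 14.3 and 18.7 FPKM in mock roots. The groups overlapped, and no change was called (-0.41 ± 0.30, adjusted p = 0.26), but with library totals IRT1 was lower (-0.96, adjusted p = 0.011). The spread lay between the As(V) replicates: without replicate 1 the change was 0.23 (adjusted p = 0.3), and without replicate 2 it was -1.05 (adjusted p = 0.0049). The leaf markers also differed between libraries, with sums of 36.8 FPKM in As(V) replicate 1 and 209 FPKM in As(V) replicate 2, against 154 and 63.5 FPKM in mock roots, and their part was not tested. IRT1 averaged 13.4 ± 8.51, 7.0 ± 2.24 and 5.43 ± 0.298 FPKM in As(V) roots at 1.5, 6 and 24 h, against 16.5 ± 3.11, 1.07 ± 0.417 and 87.5 ± 4.33 FPKM in mock roots (SD, n = 2 each). From high to low the order was mock at 24 h, mock at 1.5 h, As(V) at 1.5, 6 and 24 h, and mock at 6 h. The 4 middle groups each overlapped with their neighbour in this order, while the highest and the lowest group, both mock, stood apart from theirs.

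FRO2 (AT1G01580), the ferric reductase of the root surface, had a pattern like that of IRT1. It had 1.25 and 1.19 FPKM in As(V) roots at 24 h, against 40.2 and 45.3 FPKM in mock roots. The mean was 1.22 ± 0.0469 FPKM in As(V) roots, against 42.7 ± 3.55 FPKM in mock roots (SD, n = 2 each), a change of -4.30 ± 0.41 (adjusted p = 9.2e-06). At 6 h FRO2 had 2.25 and 4.9 FPKM in As(V) roots, against 1.24 and 1.05 FPKM in mock roots, without overlap but also without a call (1.04 ± 0.55, adjusted p = 0.11). A call was made there when only the libraries at 6 h were fitted (1.04, adjusted p = 0.029) and with no weights (1.03, adjusted p = 0.035), but library totals left 0.23 (adjusted p = 0.67). At 1.5 h FRO2 had 3.34 and 9.83 FPKM in As(V) roots, against 5.42 and 7.24 FPKM in mock roots. These groups overlapped (-0.09 ± 0.33, adjusted p = 0.83), and without As(V) replicate 1 the change turned to 0.57 (adjusted p = 0.042). With library totals it was -0.58 (adjusted p = 0.1). At 1.5 h the As(V) library with more leaf marker signal, replicate 2, had more IRT1 and FRO2, and the mock library with more of it, replicate 1, had less of both. This sets 1 library beside 1 other in each group, and the part of leaf tissue was not tested.

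FRO3 (AT1G23020), a ferric reductase of mitochondria, behaved otherwise. It had 17.2 and 17.0 FPKM in As(V) roots at 1.5 h, against 33.5 and 36.2 FPKM in mock roots. After 6 h FRO3 had 16.1 and 17.9 FPKM in As(V) roots, against 25.6 and 23.6 FPKM in mock roots. FRO3 was lower with As(V) at both times, with log2 changes of -0.98 ± 0.09 at 1.5 h (adjusted p = 3e-06) and -0.50 ± 0.10 at 6 h (adjusted p = 0.00067). With library totals these were -1.56 (adjusted p = 3.4e-08) and -1.6 (adjusted p = 2.1e-08). At 24 h it had 39.8 and 45.4 FPKM in As(V) roots, against 37.4 and 40.5 FPKM in mock roots, with overlap and no call (0.12 ± 0.08, adjusted p = 0.18). With library totals this last change was called (0.23, adjusted p = 0.011), as it was with median-of-ratios scaling (0.23, adjusted p = 0.021).

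FIT (AT2G28160), the bHLH factor needed for IRT1 and FRO2 expression, was higher with As(V) at the early times. It had 98.8 and 80.5 FPKM in As(V) roots at 1.5 h, against 42.5 and 50.9 FPKM in mock roots. After 6 h the values were 56.2 and 58.1 FPKM in As(V) roots, against 19.5 and 19.4 FPKM in mock roots. FIT rose 1.92-fold at 1.5 h (log2 0.92 ± 0.11, adjusted p = 2.5e-05) and 2.94-fold at 6 h (1.51 ± 0.13, adjusted p = 1.2e-06). Library totals kept both calls at smaller size, 0.32 (adjusted p = 0.015) and 0.35 (adjusted p = 0.019). At 24 h FIT had 15.4 and 18.4 FPKM in As(V) roots, against 24.1 and 21.1 FPKM in mock roots, and was lower with As(V) by a small step (-0.41 ± 0.14, adjusted p = 0.022). That last call did not hold with library totals (-0.30, adjusted p = 0.054), with median-of-ratios scaling (-0.31, adjusted p = 0.074), with no filter (adjusted p = 0.054), without As(V) replicate 1 (-0.28, adjusted p = 0.18) or without mock replicate 1 (-0.31, adjusted p = 0.13).

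FIT and its targets did not run side by side. In As(V) roots at 1.5 h, where FIT was highest, IRT1 stood at 13.4 ± 8.51 FPKM, and in mock roots at 24 h, where IRT1 was highest, FIT stood at 22.6 ± 2.08 FPKM (SD, n = 2 each). The ratio of IRT1 to FIT levels was 0.338 and 0.307 in As(V) roots at 24 h, against 3.51 and 4.29 in mock roots. At 6 h it was 0.0963 and 0.148 in As(V) roots, against 0.0703 and 0.0401 in mock roots.

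**Figure D2:**
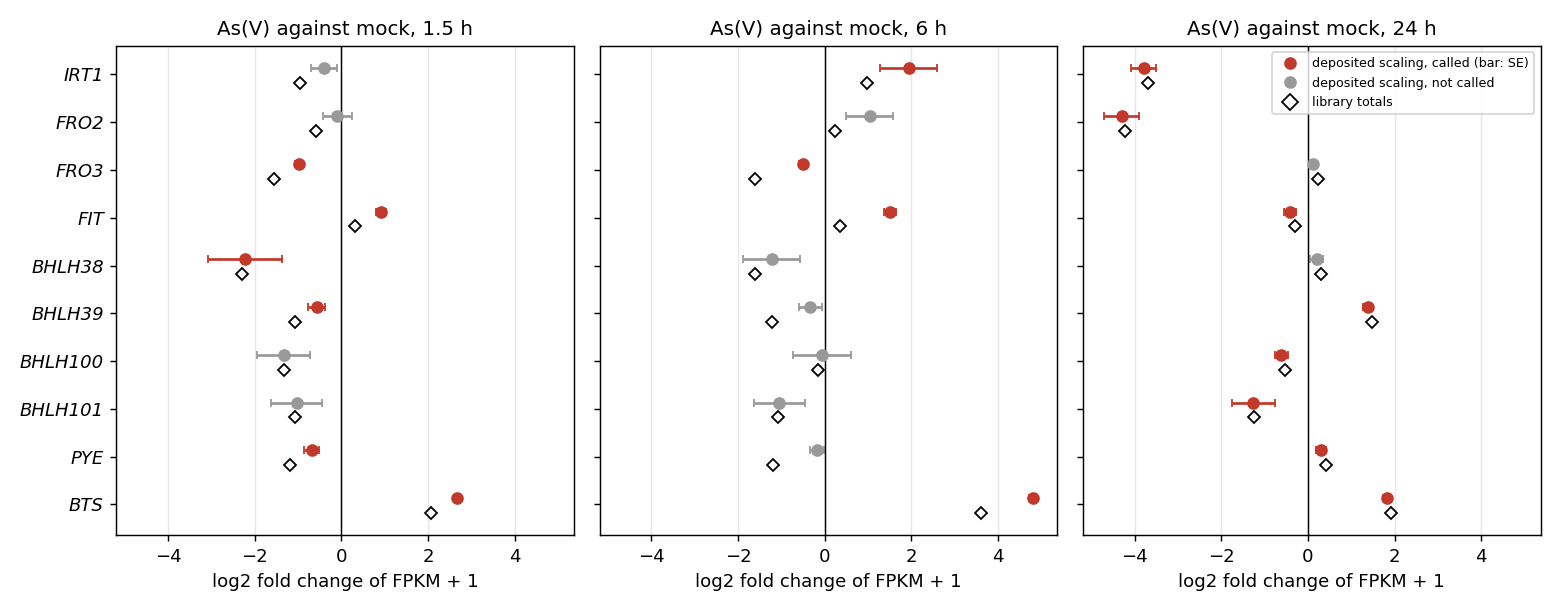
Log2 fold change of FPKM + 1, As(V) against mock (x axis), of each iron gene (y axis) at 1.5, 6 and 24 h; filled points are changes with the deposited scaling, red where called, bars are standard errors, and open diamonds are changes with library totals. BTS is to the right of 0 in all 3 panels (2.68, 4.8 and 1.83), IRT1 and FRO2 are at -3.79 and -4.30 at 24 h, and the diamonds lie to the left of the filled points for most genes at 1.5 and 6 h.

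Among the subgroup Ib genes, BHLH38 (AT3G56970) had 0 and 0.513 FPKM in As(V) roots at 1.5 h, against 4.81 and 4.68 FPKM in mock roots. In reads this was 0 and 3 in As(V) roots, against 45 and 44 in mock roots. BHLH38 was called lower at 1.5 h (-2.22 ± 0.85, adjusted p = 0.041), but no longer when any 1 of the 4 libraries was left out (-1.92 to -2.52, adjusted p = 0.065 to 0.17). After 6 h BHLH38 had 0.679 and 0.645 FPKM in As(V) roots, against 3.1 and 2.66 FPKM in mock roots. The groups did not overlap, and the change of -1.22 ± 0.66 was not called (adjusted p = 0.12), while 4 alternatives called it, library totals among them (-1.61, adjusted p = 0.028). At 24 h BHLH38 had 19.0 and 29.1 FPKM in As(V) roots, against 21.2 and 19.0 FPKM in mock roots. These groups overlapped (0.20 ± 0.15, adjusted p = 0.27), and 1 library set the sign: the change was 0.51 without As(V) replicate 1 (adjusted p = 0.0014) and -0.07 without As(V) replicate 2 (adjusted p = 0.55).

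BHLH39 (AT3G56980), its neighbour on the chromosome, had 38.4 and 45.5 FPKM in As(V) roots at 24 h, against 15.1 and 15.8 FPKM in mock roots. It rose 2.72-fold, with a change of 1.38 ± 0.10 (adjusted p = 7.5e-07). At 1.5 h BHLH39 had 5.95 and 6.82 FPKM in As(V) roots, against 10.2 and 9.67 FPKM in mock roots. It was called lower there (-0.57 ± 0.20, adjusted p = 0.028), a call lost when any 1 of the 4 libraries was left out (adjusted p = 0.052 to 0.14), and the change was -1.08 with library totals (adjusted p = 0.0002). After 6 h its values were 4.52 and 4.05 FPKM in As(V) roots, against 5.0 and 6.28 FPKM in mock roots. No change was called at 6 h as deposited (-0.33 ± 0.26, adjusted p = 0.26), and with library totals BHLH39 was lower (-1.22, adjusted p = 0.00042).

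BHLH100 (AT2G41240) had 3.92 and 4.92 FPKM in As(V) roots at 24 h, against 6.77 and 7.59 FPKM in mock roots. It fell by 0.61 ± 0.15 on the log2 scale (adjusted p = 0.0036). At 1.5 h it was listed at 0 in both As(V) libraries, against 2.16 and 1.0 FPKM in mock roots, which was not called (adjusted p = 0.078) but was called with no weights (adjusted p = 0.00034), with no filter (adjusted p = 0.038) and with a pseudocount of 0.1 (adjusted p = 0.001). After 6 h BHLH100 had 0.305 and 0 FPKM in As(V) roots, against 0.254 and 0.116 FPKM in mock roots, and at these levels no difference was detectable (adjusted p = 0.95).

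BHLH101 (AT5G04150) was the lowest of the subgroup at 24 h and had at most 1 read in any As(V) library. At 24 h it had 0.113 and 0.14 FPKM in As(V) roots, against 1.21 and 2.29 FPKM in mock roots, and was called lower (-1.26 ± 0.50, adjusted p = 0.046). This call was lost when only the libraries at 24 h were fitted (adjusted p = 0.09), without either As(V) replicate (adjusted p = 0.17 and 0.15) and without mock replicate 2 (-0.98, adjusted p = 0.14). At 6 h BHLH101 was listed at 0 in both As(V) libraries, against 0.77 and 1.41 FPKM in mock roots. At 1.5 h it had 0 and 0.233 FPKM in As(V) roots, against 1.75 and 0.871 FPKM in mock roots. Neither difference was called (adjusted p = 0.13 at 6 h and 0.15 at 1.5 h). With a pseudocount of 0.1 both were called, at -3.53 (adjusted p = 0.0019) and -2.88 (adjusted p = 0.0089). No As(V) library reached a mock library at any time, but BHLH101 passed the filter on low values through mock libraries alone. Such a filter favours genes that are higher in mock roots, so this separation is a description and adds no support to the calls.

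The make-up of the subgroup differed between As(V) and mock libraries. Summed over the 4 genes, the level was 5.95 and 7.57 FPKM in As(V) roots at 1.5 h, against 18.9 and 16.2 FPKM in mock roots. At 24 h the sum was 61.4 and 79.6 FPKM in As(V) roots, against 44.3 and 44.7 FPKM in mock roots, so the order of the groups was the opposite. BHLH39 made up 62.5% and 57.2% of the sum in As(V) roots at 24 h, against 34.1% and 35.4% in mock roots. At 1.5 h its share was 100% and 90.1% in As(V) roots, against 53.9% and 59.6% in mock roots, and at 6 h 82.1% and 86.3% in As(V) roots, against 54.8% and 60.0% in mock roots. At all 3 times BHLH39 thus had a larger share in both As(V) libraries than in either mock library. These sums and shares are descriptions of single libraries, with no test. In As(V) libraries at 1.5 and 6 h BHLH39 had 17 to 36 reads, and BHLH38, BHLH100 and BHLH101 had 3 or fewer each. The shares at these 2 times therefore lie near the limit of detection.

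**Figure D3:**
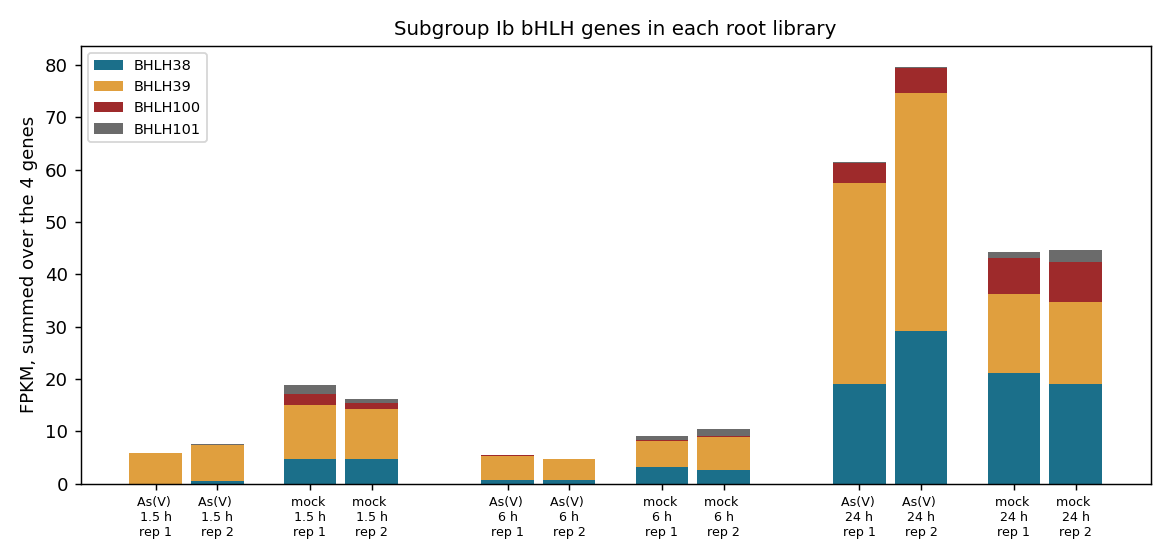
FPKM summed over BHLH38, BHLH39, BHLH100 and BHLH101 (y axis, from 0) in each library (x axis, As(V) left of mock at each time), with each gene as a coloured part of the bar. The bars of As(V) roots are the shorter ones at 1.5 and 6 h and the taller ones at 24 h, at 61.4 and 79.6 FPKM against 44.3 and 44.7 in mock roots, and BHLH39 fills most of each As(V) bar.

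BTS (AT3G18290) was higher with As(V) at every time. It had 117 FPKM in both As(V) libraries at 1.5 h, against 17.8 and 17.0 FPKM in mock roots. After 6 h BTS had 395 and 381 FPKM in As(V) roots, against 14.0 and 12.1 FPKM in mock roots. At 24 h it had 53.9 and 61.7 FPKM in As(V) roots, against 14.3 and 16.9 FPKM in mock roots. BTS rose 6.72-fold at 1.5 h (2.68 ± 0.09, adjusted p = 9.2e-10), 29.7-fold at 6 h (4.8 ± 0.09, adjusted p = 7.1e-12) and 3.71-fold at 24 h (1.83 ± 0.09, adjusted p = 3.5e-08). With library totals the changes were 2.07 (adjusted p = 4e-09), 3.61 (adjusted p = 6.9e-11) and 1.93 (adjusted p = 1.6e-08). Over the 6 groups the mean was highest in As(V) roots at 6 h, then at 1.5 h and at 24 h of As(V), each apart from the next. The 3 mock groups, at 17.4 ± 0.563, 13.1 ± 1.32 and 15.6 ± 1.81 FPKM at 1.5, 6 and 24 h (SD, n = 2 each), lay below them. Within mock, BTS was lower at 6 h than at 1.5 h by a small step (-0.39 ± 0.09, adjusted p = 0.014).

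PYE (AT3G47640), a repressor of iron distribution genes, had smaller changes than BTS. It had 7.19 and 5.29 FPKM in As(V) roots at 1.5 h, against 10.2 and 10.8 FPKM in mock roots, and was lower (-0.68 ± 0.17, adjusted p = 0.0042), a call lost without As(V) replicate 2 (-0.49, adjusted p = 0.058). Library totals gave -1.19 (adjusted p = 3.5e-05). At 6 h it had 7.37 and 9.44 FPKM in As(V) roots, against 9.58 and 9.64 FPKM in mock roots, which was not called (-0.18 ± 0.16, adjusted p = 0.33) unless library totals were used (-1.19, adjusted p = 1.8e-05). At 24 h PYE had 13.9 and 15.6 FPKM in As(V) roots, against 10.8 and 12.7 FPKM in mock roots. It was called higher (0.30 ± 0.11, adjusted p = 0.031), but not with no weights (adjusted p = 0.1), with only the libraries at 24 h (adjusted p = 0.067), without As(V) replicate 2 (0.23, adjusted p = 0.15) or without mock replicate 1 (0.19, adjusted p = 0.21).

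Whether the As(V) effect itself changed with time was tested as a difference of effects. Between 1.5 and 6 h 4 of the 10 genes differed, IRT1, FRO3, FIT and BTS, all towards a higher effect at 6 h, beside 43.7% of all genes. The effect on BTS was larger at 6 h by 2.11 ± 0.12 (adjusted p = 3.4e-07) and that on IRT1 by 2.35 ± 0.71 (adjusted p = 0.023). With library totals, which move the median of all genes in this contrast to -0.39, the difference for FIT was 0.03 (adjusted p = 0.88) and that for FRO3 turned to -0.04 (adjusted p = 0.8), which left 2 of the 10 called. The call for IRT1 was also lost with no filter (adjusted p = 0.054) and without As(V) replicate 2, mock replicate 1 or mock replicate 2 at 6 h (adjusted p = 0.094, 0.079 and 0.085). Leaving out As(V) replicate 2 at 6 h left BTS as the only call. Between 6 and 24 h 6 of the 10 differed, beside 61.7% of all genes. The effect at 24 h minus that at 6 h was -5.73 ± 0.71 for IRT1 (adjusted p = 6.1e-05), -5.34 ± 0.68 for FRO2 (adjusted p = 7.9e-05), -1.92 ± 0.19 for FIT (adjusted p = 5.9e-06) and -2.97 ± 0.12 for BTS (adjusted p = 9e-09). It rose by 1.71 ± 0.28 for BHLH39 (adjusted p = 0.00028) and by 0.63 ± 0.12 for FRO3 (adjusted p = 0.001). With library totals, which move the median of all genes in this contrast to 0.94, 8 of the 10 differed, BHLH38 (1.91, adjusted p = 0.016) and PYE (1.6, adjusted p = 1.2e-05) being the 2 added. The difference was then -0.65 for FIT (adjusted p = 0.0057), -1.68 for BTS (adjusted p = 2.7e-07), 2.7 for BHLH39 (adjusted p = 2.3e-06) and 1.83 for FRO3 (adjusted p = 1.5e-07). The effect thus moved down for FIT and up for BHLH39, 2 factors that act on IRT1 and FRO2 as dimers.

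Within As(V) roots 2 of the 10 genes differed between 1.5 and 6 h, beside 48.6% of all genes: BTS rose by 1.72 ± 0.08 (adjusted p = 2.7e-08) and FIT fell by 0.63 ± 0.12 (adjusted p = 0.001). The count was 5 with library totals, where IRT1 (-1.1, adjusted p = 0.04), FRO3 (-0.47, adjusted p = 0.0016) and BHLH39 (-0.8, adjusted p = 0.017) were lower too and FIT was at -1.12 (adjusted p = 9.7e-06). The count was 4 without As(V) replicate 1 at 1.5 h, IRT1 among them (-1.38, adjusted p = 0.0011). Between 6 and 24 h of As(V) 7 of the 10 differed, beside 67.9% of all genes, 5 higher and 2 lower at 24 h. BHLH38 rose by 3.87 ± 0.62 (adjusted p = 0.0002), BHLH39 by 3.01 ± 0.23 (adjusted p = 4e-07) and BHLH100 by 2.23 ± 0.55 (adjusted p = 0.0039). BTS fell by 2.73 ± 0.08 (adjusted p = 2e-10), and FIT fell by 1.71 ± 0.14 (adjusted p = 5.8e-07). With library totals BTS was at -1.48 (adjusted p = 1.5e-08) and FIT at -0.49 (adjusted p = 0.0041), while FRO3 was at 2.43 and PYE at 1.82, against 1.27 and 0.75 as deposited. IRT1 averaged 13.4, 7.0 and 5.43 FPKM at 1.5, 6 and 24 h of As(V), and neither step was called as deposited (-0.74 and -0.29, adjusted p = 0.19 and 0.57). The second step changed sign with library totals (0.74, adjusted p = 0.12).

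Within mock roots the iron genes changed over time as well. IRT1 averaged 16.5, 1.07 and 87.5 FPKM at 1.5, 6 and 24 h of mock, and FRO2 6.33, 1.14 and 42.7 FPKM. Both were low at 6 h and highest at 24 h, so the low IRT1 and FRO2 of As(V) roots at 24 h stands against a mock group that had risen. From 1.5 to 6 h of mock 6 of the 10 genes fell and none rose, beside 20.8% of all genes called in either direction, and without mock replicate 1 at 6 h 3 were called. IRT1 fell by 3.09 ± 0.57 (adjusted p = 0.005), and FIT fell by 1.22 ± 0.12 (adjusted p = 9.2e-05). Without mock replicate 1 at 6 h the change of IRT1 was -3.29 and was no longer called. The fall of FRO2 was not called with no filter (-1.77, adjusted p = 0.058). From 6 to 24 h of mock 6 of the 10 rose and none fell, beside 23.5% of all genes. IRT1 rose by 5.44 ± 0.56 (adjusted p = 0.00013), FRO2 by 4.35 ± 0.42 (adjusted p = 9e-05), BHLH100 by 2.79 ± 0.40 (adjusted p = 0.00069) and BHLH38 by 2.45 ± 0.28 (adjusted p = 0.00014). BHLH39 rose by 1.31 ± 0.16 (adjusted p = 0.0002) and FRO3 by 0.64 ± 0.08 (adjusted p = 0.00023). Time of day and time in the liquid medium cannot be told apart across these groups. BHLH38, BHLH39, BHLH100 and FRO3 were thus higher at 24 h than at 6 h under both treatments. IRT1 and FRO2 had no called rise between these times in As(V) roots, while both rose in mock roots. In As(V) roots the change of FRO2 was -0.98 ± 0.54, without overlap but also without a call (adjusted p = 0.13). FRO2 was called lower there with no weights (adjusted p = 0.046), the replicate block (adjusted p = 0.044) and only the libraries compared (adjusted p = 0.036). Library totals gave -0.14 (adjusted p = 0.81).

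Across the 12 libraries the levels of some of these genes ran together, which is given as a description, since the libraries share treatments and times. On log2(FPKM + 1) Pearson's r was 0.96 between IRT1 and FRO2, 0.95 between BHLH38 and FRO3, and 0.94 between BHLH38 and BHLH100. FIT ran against the subgroup Ib genes, with r = -0.81 to BHLH38, -0.61 to BHLH39, -0.62 to BHLH100 and -0.41 to BHLH101, and r was 0.13 between FIT and IRT1. BTS ran against BHLH101, with r = -0.85. BHLH101 had at most 1 read in any As(V) library and passed the filter through mock libraries alone. Its r values thus rest on that filter and on values near 0, and are no evidence of a link between genes. Outside the 10 genes, the patterns most like that of IRT1 were those of AT1G52120, annotated as a mannose-binding lectin superfamily protein (r = 0.943), AT4G33040, a thioredoxin superfamily protein (0.929), and AT3G03670, a peroxidase superfamily protein (0.895). AT1G52120 had 0.859 and 0.584 FPKM in As(V) roots at 24 h, against 7.32 and 8.58 FPKM in mock roots, where it was highest, like IRT1. The nearest to BHLH39 were AT1G49900, a C2H2 zinc finger factor (0.98), ALA2, an aminophospholipid ATPase (0.979), and AT4G32670, a RING/FYVE/PHD zinc finger protein (0.962). The nearest to PYE were AT1G73970 (0.967), the protein kinase gene AT2G24360 (0.961) and AT4G38760, annotated as a nucleoporin (0.96).

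Of 65 other genes of iron handling, in 5 lists, 52 were tested. At 1.5 h 12 were higher with As(V), 22 lower and 18 not called. At 6 h 18 were higher, 25 lower and 9 not called, and at 24 h 9 were higher, 29 lower and 14 not called. Over all genes tested, 30.0% were higher and 33.6% lower at 1.5 h, 35.6% and 37.4% at 6 h, and 29.2% and 36.2% at 24 h, and the counts in each list below stand beside these shares. The median change was -0.41, -0.43 and -0.41, against -0.09, -0.12 and -0.06 over all genes tested. With library totals 5 were higher and 35 lower at 1.5 h, 9 higher and 36 lower at 6 h, and 11 higher and 26 lower at 24 h. Of all 19846 genes tested, that scaling called 3092 higher and 12201 lower at 1.5 h and 3317 higher and 13670 lower at 6 h. At 24 h it called 6857 higher and 6354 lower. List counts with library totals below stand beside these numbers. Of the uptake genes beside IRT1 and FRO2, all 4 that were tested fell at 6 and at 24 h, and did so with library totals too. AHA7, a plasma membrane proton pump, had 6.17 FPKM in As(V) roots at 6 h, against 69.8 FPKM in mock roots (-3.30 ± 0.10, adjusted p = 1.9e-10). The ZIP transporter gene IRT3 had 11.8 FPKM in As(V) roots at 24 h, against 40.8 FPKM in mock roots (-1.70 ± 0.15, adjusted p = 2.5e-06). The proton pump gene AHA2 fell by 1.02 ± 0.07 at 24 h (adjusted p = 2.5e-07), and IRT2 fell by 1.40 ± 0.18 at 6 h (adjusted p = 3.8e-05).

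Of 11 regulators that act upstream, 6 were higher and 3 lower at 6 h, a split that library totals turned to 2 higher and 7 lower, and 0 were higher and 7 lower at 24 h, or 1 and 5 with library totals. ILR3, a bHLH factor that BTS targets, averaged 136 FPKM in As(V) roots at 1.5 h, against 92.9 FPKM in mock roots (0.55 ± 0.08, adjusted p = 0.00012), and its sign turned with library totals (-0.06, adjusted p = 0.52). BHLH34, of the same subgroup, rose by 2.04 ± 0.25 at 6 h (adjusted p = 2.5e-05; 0.90 with library totals), and bHLH121 rose by 0.65 ± 0.12 at 1.5 h (adjusted p = 0.00065), against 0.06 with library totals (adjusted p = 0.66). BHLH115 fell by 1.03 ± 0.07 at 24 h (adjusted p = 4.8e-07). AT1G47400 and AT1G47395 of this list were both lower at 6 h (-1.95 ± 0.50 and -2.35 ± 0.80, adjusted p = 0.0044 and 0.02). Of 12 tested partners and regulators of FIT, 5 were higher and 5 lower at 6 h, and 4 were higher and 7 lower at 24 h. With library totals 3 were higher and 6 lower at 6 h. ZAT12, a zinc finger factor that binds FIT, averaged 918 FPKM in As(V) roots at 1.5 h, against 52.9 FPKM in mock roots (4.16 ± 0.25, adjusted p = 6.3e-07). EIL1, a transcription factor of ethylene signalling that also binds FIT, rose by 2.20 ± 0.07 at 6 h (adjusted p = 2.3e-10), or by 1.02 with library totals. NAI1, a bHLH factor, fell by 2.65 ± 0.22 at 24 h (adjusted p = 1.8e-06), and MYB10 fell by 1.75 ± 0.26 (adjusted p = 0.00013). MYB10 had 0.943 and 0.636 FPKM in As(V) roots at 24 h, against 4.96 and 5.1 FPKM in mock roots. MYB10, AT2G22750 and AT2G30766, all counted as lower at 24 h, passed the filter on low values through mock libraries. Such a filter favours genes that are higher in mock roots, so their falls add no support to the counts.

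Of 21 tested genes of iron transport, chelation and storage, 5 were higher and 11 lower at 6 h, and 4 were higher and 9 lower at 24 h. With library totals 3 were higher and 16 lower at 6 h. VTL2, counted as lower at both times, passed the filter on low values through mock libraries alone, so its falls add no support. NAS1, a nicotianamine synthase, had 0.965 FPKM in As(V) roots at 6 h, against 14.3 FPKM in mock roots (-2.99 ± 0.30, adjusted p = 4.3e-06). FRD3, the citrate exporter that loads iron into the xylem, fell by 3.08 ± 0.67 at 6 h (adjusted p = 0.0016), and OPT3, a phloem iron transporter, fell by 2.14 ± 0.23 at 1.5 h (adjusted p = 1.2e-05). The vacuolar transporter gene FPN2 fell by 2.58 ± 0.19 at 24 h (adjusted p = 7.4e-07). In the other direction, ZIF1, a vacuolar membrane transporter, rose by 2.98 ± 0.06 at 6 h (adjusted p = 1.1e-11) and FER4, a ferritin, by 1.94 ± 0.13 at 1.5 h (adjusted p = 2.5e-07). At 1.5 h ZIF1 was lower, with 13.3 FPKM in As(V) roots, against 22.0 FPKM in mock roots. The ferritin genes went both ways. FER2 was also higher at 1.5 h, FER3 was not called, and FER1 was lower (44.5 FPKM in As(V) roots, against 70.2 FPKM in mock roots). At 6 h FER1 and FER3 were lower and FER2 and FER4 higher as deposited. Of 4 tested coumarin genes 2 were higher and 2 lower at 6 h, or 1 and 3 with library totals. PDR9, an exporter of iron-mobilising phenolics, averaged 544 FPKM in As(V) roots at 6 h, against 36.5 FPKM in mock roots (3.86 ± 0.09, adjusted p = 1.9e-11). F6'H1, the enzyme that makes their coumarin core, rose by 0.86 ± 0.11 at 6 h (adjusted p = 3.2e-05) but was lower with library totals (-0.31, adjusted p = 0.018), and it fell by 0.37 ± 0.10 at 24 h (adjusted p = 0.0078).

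**Figure D4:**
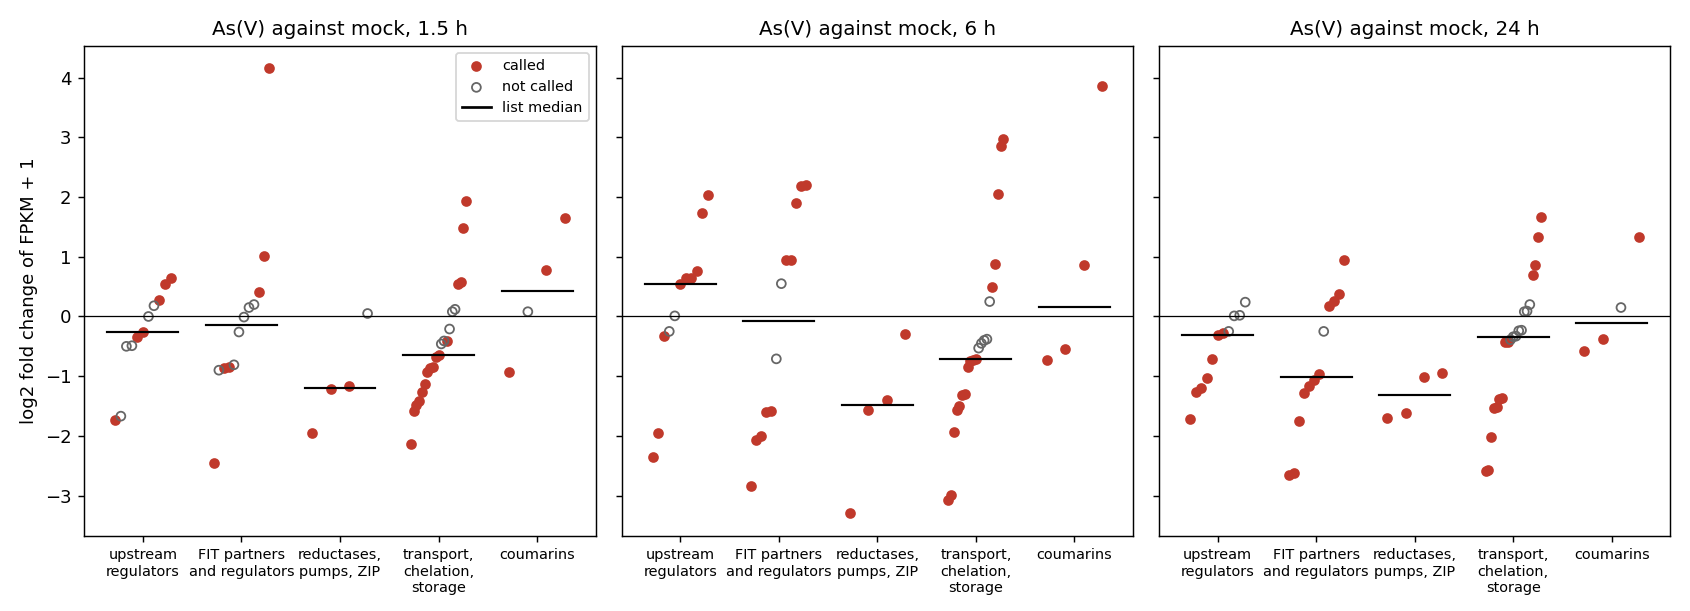
Log2 fold change of FPKM + 1, As(V) against mock (y axis), of the 52 tested genes in 5 lists of iron genes outside the 10 (x axis) at 1.5, 6 and 24 h; each point is a gene, filled where called, and the bar is the list median. The uptake list, with median changes of -1.19, -1.48 and -1.32 at 1.5, 6 and 24 h, has no called gene above 0 in any panel, and the other lists have called genes on both sides, apart from the upstream regulators at 24 h, where the called genes are all below 0; points show the deposited scaling.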

How the data were processed

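The 12 root libraries were stranded mRNA libraries with single-end reads of 50 bases, per the labels, and their values were taken as deposited. The deposited values behave as FPKM that the authors scaled, since low values of a gene are whole multiples of a step set by transcript length. No label gives the unit or the scaling formula. The submitters' processing notes name TAIR10 and the tools edgeR, HTSeq 0.6.0, STAR 2.5.4 and Trim Galore, without saying what each did. Of 22373 genes with enough values, 9588 (42.9%) gave a step within 0.05 reads, 4 of the 10 iron genes among them. For other genes reads were estimated from transcript length, so read numbers are approximate.

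Tested were 19846 genes that reached 1 FPKM in 2 libraries and 10 estimated reads in 2 libraries. limma 3.58.1 in R 4.3.3 was fitted to log2(FPKM + 1), with 1 coefficient per group over all 12 libraries, voom weights from estimated reads and robust moderated variances (residual degrees of freedom 6, prior degrees of freedom with a median of 4.67). The p-values were adjusted by Benjamini-Hochberg over all genes tested. The fit was also run on simulated libraries of equal scaling, which cannot speak for calls that depend on the deposited scaling. Alternatives were a pseudocount of 0.1, no filter, library totals, median-of-ratios scaling, no weights, a replicate block, only the libraries compared, and each replicate left out. The 10 genes, the lists and the tests were chosen with earlier results of these data known. Named were all 10 genes, genes among the 3 largest called changes per list and comparison with a mean of at least 1 FPKM, and the 3 genes most correlated with IRT1, BHLH39 and PYE. A few other genes of the lists are given only as limits to these. Names and sequences are those of RefSeq for TAIR10.1. The planned promoter table was replaced by the 250 genome bases before each gene start.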

Additional observations from a re-analysis of the deposited data

Results flagged for a closer look

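The As(V) effect on several of the 10 iron genes differed between times by a test of the difference itself, limma's contrast of 2 effects with Benjamini-Hochberg adjustment. The effect at 6 h exceeded that at 1.5 h by 2.35 log2 units for IRT1, 0.48 for FRO3, 0.59 for FIT and 2.11 for BTS. The effect at 24 h minus that at 6 h was -5.73 for IRT1, -5.34 for FRO2, 0.63 for FRO3, -1.92 for FIT, 1.71 for BHLH39 and -2.97 for BTS. With library totals the first difference was 0.03 for FIT and -0.04 for FRO3, and the second was -0.65 for FIT, 1.83 for FRO3, 2.7 for BHLH39 and -1.68 for BTS. The mock group at 6 h enters both contrasts. IRT1 and FRO2 had their lowest mock levels there, at 1.07 ± 0.417 and 1.14 ± 0.135 FPKM (SD, n = 2 each).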

How the results depend on the processing

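Of 1070 values of the 10 genes under the alternatives, 950 kept direction and side of the threshold, 51 gained a call, 45 lost one and 24 changed sign or reached 0. With library totals the counts over all genes were 3092 higher and 12201 lower for 1.5 h, and 3317 higher and 13670 lower for 6 h. At 6 h 4 of the 10 iron genes were then lower, against 1 as deposited. That count was 3 with a pseudocount of 0.1, 4 with no weights and 2 with only the libraries compared. Library totals left 2 iron genes with an effect that differed between 1.5 and 6 h, against 4, and 5 that differed between 6 and 1.5 h of As(V), against 2. They reversed the difference of effects between 6 and 1.5 h for FRO3 (-0.04), BHLH39 (-0.14) and PYE (-0.0 after rounding), the change between 6 and 1.5 h of As(V) for PYE (-0.06) and that between 24 and 6 h for IRT1 (0.74). A pseudocount of 0.1 reversed the difference of effects between 24 and 6 h for BHLH101 (0.56). Scaling apart, the causes were not tested.

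Leaving out 1 replicate at a time left 2 to 3 iron genes lower at 1.5 h, 2 to 5 higher and 3 to 4 lower at 24 h, and 1 to 4 with an effect that differed between 1.5 and 6 h. It left 2 to 4 iron genes that differed between 6 and 1.5 h of As(V). In mock it left 3 to 5 iron genes and 1984 to 2789 of all genes that differed between 6 and 1.5 h, and 2569 to 4092 of all genes between 24 and 6 h, all with fewer samples in the fit. Changes that took both signs ranged from -1.05 to 0.23 for IRT1 and -0.75 to 0.57 for FRO2 at 1.5 h, -0.24 to 0.14 for BHLH100 at 6 h and -0.07 to 0.51 for BHLH38 at 24 h. For BHLH101 they ranged from -0.3 to 0.26 and -0.49 to 0.08 for the differences of effects between 6 and 1.5 h and between 24 and 6 h, and from -0.41 to 0.15 in mock between 6 and 1.5 h. In As(V) roots between 6 and 1.5 h they ranged from -1.3 to 0.02 for FRO2 and -0.08 to 0.06 for FRO3. There BHLH100, at 0.0 to 0.38, and BHLH101, at -0.3 to 0.0, reached 0 without taking the other sign.

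The replicate numbers share only a number: deviations of same-numbered libraries correlated at -0.04 to 0.11 and the labels give no pairing. With the replicate block 4 iron genes were higher at 6 h, against 3, since FRO2 gained a call (1.12, adjusted p = 0.032), and 7 of the 10 differed in effect between 6 and 24 h, against 6. Depth limits BHLH38, BHLH100 and BHLH101, which had 3 or fewer estimated reads in the As(V) libraries at 1.5 and 6 h.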

Other observations

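Ratios of levels within a library do not depend on its scaling. The ratio of BTS to PYE was 16.3 and 22.1 in As(V) roots at 1.5 h, against 1.75 and 1.57 in mock roots. At 6 h it was 53.6 and 40.4 in As(V) roots, against 1.46 and 1.26 in mock roots, and at 24 h 3.87 and 3.96 in As(V) roots, against 1.32 and 1.33 in mock roots. BTS therefore exceeded PYE by more in each As(V) library than in any mock library. The ratio of IRT1 to FRO2 was 4.16 and 4.75 in As(V) roots at 24 h, against 2.1 and 2.0 in mock roots, and 2.4 and 1.75 in As(V) roots at 6 h, against 1.1 and 0.742 in mock roots. At 1.5 h it was 2.22 and 1.98 in As(V) roots, against 2.64 and 2.58 in mock roots. These ratios were not planned as results and carry no test.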
